A study of Mus musculus with 6 samples.

Results

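The genes described here encode the 3 protein complexes that set up apical-basal polarity in epithelial cells. The set has 9 genes: Crb3 and Patj of the Crumbs complex, Pard3, Pard6b and Prkci of the Par complex, and Llgl1, Llgl2, Scrib and Dlg1 of the Scribble module. They were chosen by symbol, not by signal, though with earlier results of these data known. They are represented by all probe sets annotated to one of these symbols alone, 21 of the 45037 probe sets tested and 9 of the 18193 genes represented on the array. RNA came from 344SQ, a mouse lung adenocarcinoma line grown out of a subcutaneous tumor of 1 animal with the alleles K-rasLA1/+ and p53R172H∆g/+, which both groups therefore share. One group carried a lentivirus with the microRNA cluster miR-200b-200a-429 and the other a control vector; both were pools selected by GFP and puromycin, and the promoter that drives the cluster is not given in the labels. Each group was grown as 3 cultures with 1 array each, lettered A, B and C in each group, and the labels do not say that cultures came from separate transductions. The p-values therefore measure the spread between these cultures, and any stable difference between the 2 pools cannot be told apart from the effect of the microRNAs.

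A polarized epithelial cell keeps its apical surface, lateral wall and junctions apart through the mutual exclusion of these complexes. Crumbs and Par proteins act at the apical side and build tight junctions, while the Scribble module holds the basolateral side, and the atypical protein kinase C encoded by Prkci phosphorylates Lgl proteins to keep them out of the apical domain. The miR-200 family maintains the epithelial state by repressing the mRNAs of Zeb1 and Zeb2, repressors that bind E-box sequences. CRB3, PATJ and the human LLGL2 are known in human carcinoma cells as genes that ZEB1 represses, so the comparison asks whether RNA of the polarity genes differed once the microRNAs were expressed.

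The mature microRNAs of the cluster are shown because their seeds, bases 2 to 8 in capitals, decide which mRNAs each can bind. The sequences are those of RefSeq for the mouse microRNAs on chromosome 4 (GRCm38.p6, minus strand). The labels do not give the sequence carried by the vector.
mmu-miR-200b-3p: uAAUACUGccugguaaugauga
mmu-miR-429-3p: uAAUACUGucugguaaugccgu
mmu-miR-200a-3p: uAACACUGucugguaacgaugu
The first pair shares the seed AAUACUG, and miR-200a has the seed AACACUG.

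The start site windows of the polarity genes were searched for the E-box that Zeb proteins are known to bind, CAGGTG, which reads CACCTG on the other strand. RefSeq windows of 250 bases before to 50 bases after the annotated start were found for 7 of the 9 genes, 14 windows in all; Llgl2 and Scrib had none in the table. Of the 14 windows, 6 held at least 1 E-box, against 20.2% of 32851 windows of all genes, and 2 of these 6 are overlapping Crb3 windows. By gene, 5 of 7 held one at any start site, against 22.6% of 27025 genes, which have fewer windows per gene than the polarity genes. Crb3 held 4, a number that 17 of the 27025 genes reached. The windows of Crb3, Patj and Pard3 that held 3 or more are shown, with E-boxes in capitals, because Crb3 and Patj are the genes for which this repression is known and Pard3 had the smallest p among the genes' brightest probe sets.
Crb3 (GRCm38.p6, chr17:57061951-57062250, plus strand): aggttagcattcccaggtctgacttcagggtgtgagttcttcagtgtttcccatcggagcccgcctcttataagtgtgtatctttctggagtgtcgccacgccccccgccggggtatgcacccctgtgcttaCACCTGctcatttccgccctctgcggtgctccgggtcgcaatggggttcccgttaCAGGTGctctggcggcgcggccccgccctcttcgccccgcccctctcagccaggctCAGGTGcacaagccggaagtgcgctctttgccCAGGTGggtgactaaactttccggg
Patj (GRCm38.p6, chr4:98395576-98395875, plus strand): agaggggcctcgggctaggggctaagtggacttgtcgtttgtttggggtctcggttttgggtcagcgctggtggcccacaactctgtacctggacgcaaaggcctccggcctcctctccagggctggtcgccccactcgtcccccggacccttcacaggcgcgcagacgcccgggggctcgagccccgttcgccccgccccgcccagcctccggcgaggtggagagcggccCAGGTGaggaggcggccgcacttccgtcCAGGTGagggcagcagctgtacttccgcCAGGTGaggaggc
Pard3 (GRCm38.p6, chr8:127299362-127299661, plus strand): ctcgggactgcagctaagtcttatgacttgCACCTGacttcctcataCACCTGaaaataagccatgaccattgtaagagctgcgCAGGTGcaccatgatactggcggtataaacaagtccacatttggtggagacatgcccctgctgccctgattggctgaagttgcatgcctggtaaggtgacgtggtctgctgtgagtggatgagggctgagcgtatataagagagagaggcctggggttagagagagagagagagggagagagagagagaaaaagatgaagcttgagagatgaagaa
In the Crb3 window the E-boxes began 118, 63 and 7 bases before the start site and 25 bases after it. Those of Patj began 19 bases before it and 9 and 37 bases after it, while the other 2 Patj start sites had none. The second Crb3 window, which starts at 57061981, overlaps the first and holds the same 4 E-boxes. Pard3 had 3 E-boxes at 1 of its 2 start sites and none at the other. Pard6b had 2 E-boxes and Dlg1 had 1 at 1 of its 4 start sites. A match of letters is a description and does not show that a Zeb protein binds there.

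**Figure D1:**
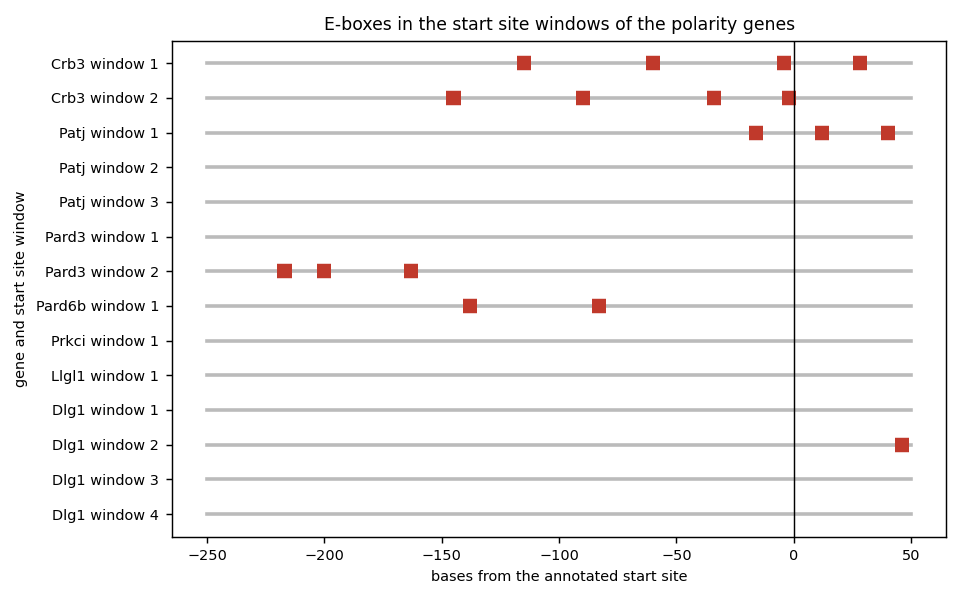
Positions of the E-box CAGGTG or CACCTG (red) in the 14 RefSeq start site windows of 7 polarity genes, in bases from the annotated start site, each grey line being 1 window of 300 bases. Crb3 window 1 holds 4 E-boxes, Patj window 1 and Pard3 window 2 hold 3 each, and the windows of Prkci and Llgl1 hold none.

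Values below are log2 signals after quantile normalization, given for cultures A, B and C in that order. A difference is the miR-200 mean less the control mean, ± its standard error in limma. In each group 1 array stood apart, control B and miR-200 A. The median absolute difference between arrays of a group, over the brightest 60% of probe sets, was 0.27 to 0.32 in pairs with 1 of them and 0.13 to 0.15 in the other pairs. Aurka, a mitotic kinase, read 7.91 and 7.96 on these arrays, against 10.47 to 10.96 on the other arrays. The macrophage gene Cd68 read 8.87 and 8.98 on those 2 arrays and 5.73 to 6.81 elsewhere. The other measured blood markers did not set both arrays apart. Csf1r read 9.40 and 9.92 there, against 9.34 to 9.94 on the other arrays. Ptprc read 5.91 and 5.44 against 5.29 to 5.75, and Cd3e 5.12 and 5.34 against 4.08 to 5.49. As a check of the cell type, 6 of 7 epithelial markers lay in the control mean above the background gauge, the highest signal of a bacterial trp control probe set (5.28), as did 3 of 4 lung epithelial, 3 of 6 fibroblast, 3 of 4 blood and 2 of 4 endothelial markers. Cldn4, a tight junction claudin, was under the gauge in the controls (3.52) and rose to 9.24, and Cldn3 rose from 6.38 to 10.31 (limma, adjusted p = 0.0217 and 0.0112). No other epithelial marker passed. Krt19 was lower in every miR-200 culture, with group means of 13.38 in the controls and 12.99 (limma, adjusted p = 0.315). Epcam was higher in every one, with means of 9.28 and 9.70 (adjusted p = 0.344). Krt8 and Krt18 differed by -0.07 and -0.02. Of the lung markers, the surfactant gene Sftpb fell from 12.58 to 6.54 and the water channel gene Aqp5 from 12.31 to 10.85 (limma, adjusted p = 0.00249 and 0.0148). Nkx2-1 differed by -0.19 (adjusted p = 0.746), and Sftpc lay under the gauge in both groups with a difference of 0.49 (adjusted p = 0.394). The mean level of the blood markers was 6.38 to 7.32 in the controls and 6.64 to 7.42 in the miR-200 cultures, and the part of such cells in the results was not tested. Cdh1, which encodes E-cadherin, read 13.22 ± 0.13 (SD, n = 3) in the control cells and 13.32 ± 0.12 in the miR-200 cells (limma, adjusted p = 0.804). Zeb1 read 9.15, 8.53 and 8.98 in the control cultures and 7.15, 8.21 and 8.04 in the miR-200 cultures, and Zeb2 8.37, 8.15 and 8.38 against 7.06, 7.79 and 7.49. Both were lower in every miR-200 culture without passing the threshold (limma, adjusted p = 0.255 and 0.195). Zeb1 has 4 probe sets and Zeb2 5, of which only the brightest of each is given.

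None of the 21 polarity probe sets passed an adjusted p of 0.05 in limma, where 0.744% of all probe sets did. At an unadjusted p under 0.05 there were 3, which is 14.3% of the 21 against 14.1% of all probe sets; 2 were higher (7.18% of all) and 1 lower (6.93% of all). The groups did not overlap for 4 of the 21, or 19% against 21.3% of all probe sets, with 3 higher (11.6% of all) and 1 lower (9.76% of all). The shares in either direction are close to the background of the array. Differences were above 0 for 13 probe sets and below 0 for 8, with a median of 0.12 against 0.03 over all probe sets; after centring on array medians the split was 10 to 11 and the median -0.02. The 95% interval of the difference lay inside a 2-fold change in either direction for 17 of the 21, against 53.2% of all probe sets. These shares are not matched for signal level. Of all 45037 probe sets 15421 lay under the background gauge in both groups, against 2 of the 21. In RNA of whole cultures, fewer cells with a transcript and less of it per cell cannot be told apart. The exceptions to the 2-fold bound were both probe sets of Pard6b, the dimmest of Pard3 and the dimmest of Dlg1.

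**Figure D2:**
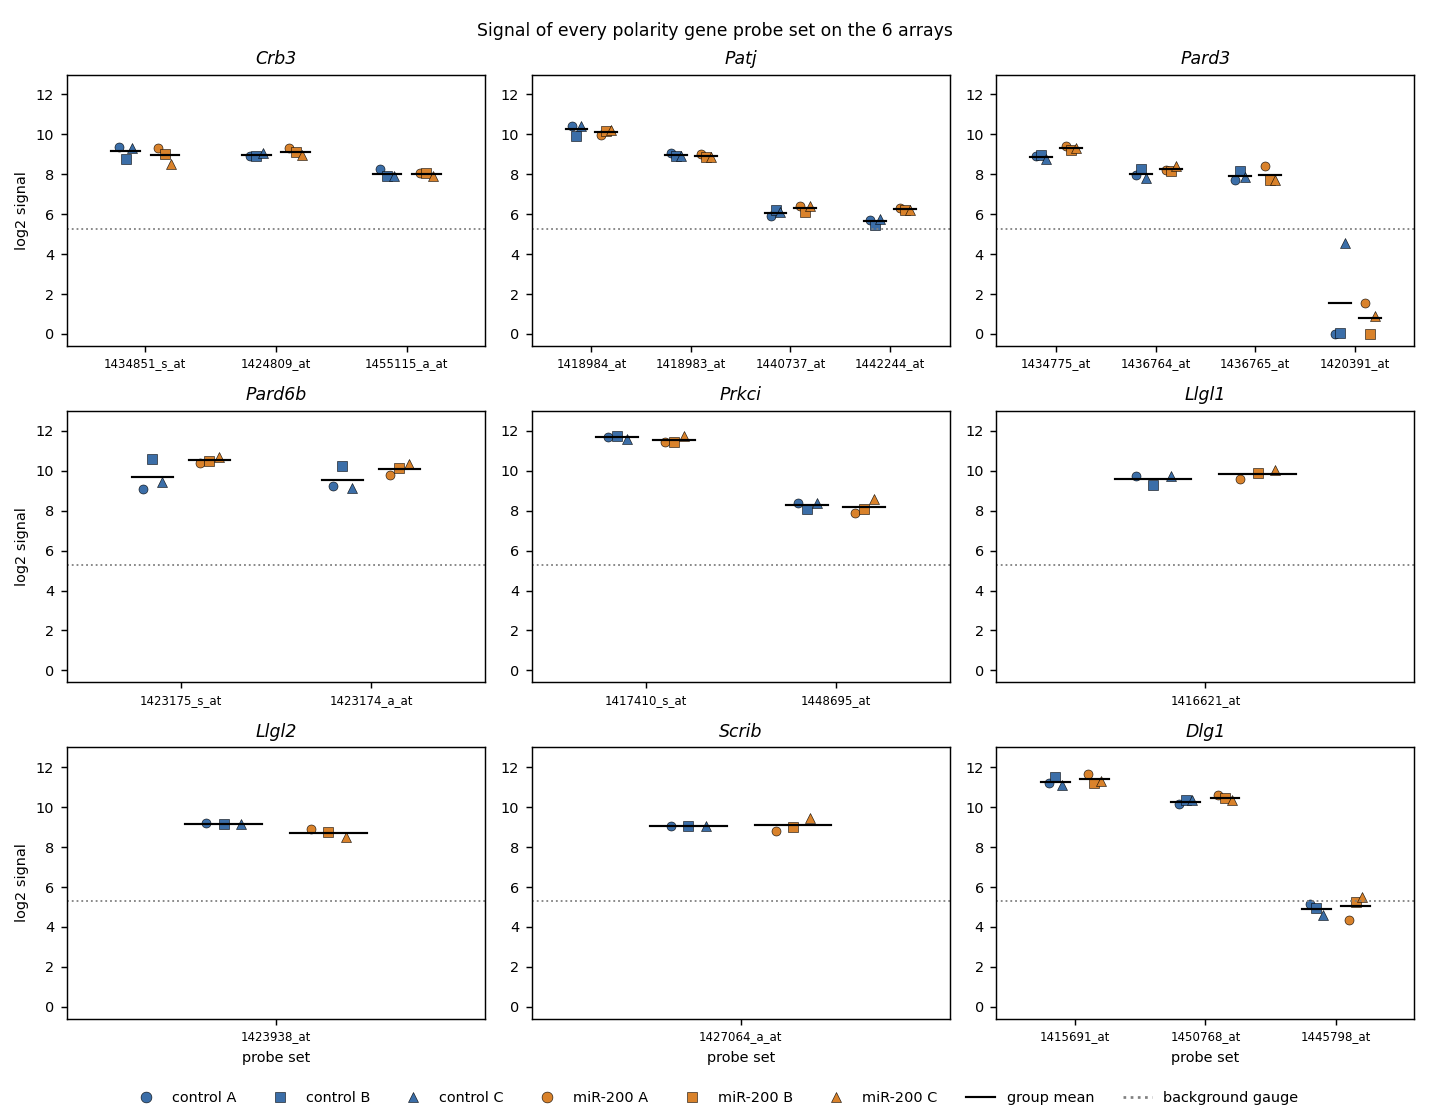
Log2 signal (y axis) of each of the 21 probe sets (x axis) of the 9 polarity genes on the 6 arrays, control in blue and miR-200 in orange, the letter of the culture given by the symbol, black bars for group means and a dotted line for the background gauge of 5.28. Most groups overlap or lie side by side; the square of control B stands above control A and C in both Pard6b probe sets.

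Crb3 encodes the epithelial Crumbs protein, a small transmembrane protein of the apical membrane. Its brightest probe set (1434851_s_at) read 9.39, 8.77 and 9.33 in the control cultures and 9.34, 9.01 and 8.52 in the miR-200 cultures. The groups overlapped, and the difference was -0.21 ± 0.28 (limma, 95% interval -0.92 to 0.50, adjusted p = 0.794). A second probe set, 1424809_at, read 8.90, 8.92 and 9.07 against 9.33, 9.10 and 8.98, a difference of 0.17 ± 0.15 with the opposite sign (95% interval -0.20 to 0.54, adjusted p = 0.665). The third, 1455115_a_at, read 8.26, 7.92 and 7.90 against 8.07, 8.05 and 7.90, a difference of -0.02 ± 0.16 (adjusted p = 0.975). The Crb3 probe sets thus gave no shared direction. All of their intervals lay within a 2-fold change, and the narrowest pair, those of 1424809_at and 1455115_a_at, reached no further than 0.54 upward and -0.41 downward.

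Patj encodes the multi-PDZ scaffold that ties Crumbs to tight junctions. Its 2 bright probe sets read lower by little, with overlapping groups. 1418984_at read 10.44, 9.94 and 10.44 in the control cultures and 9.96, 10.15 and 10.23 in the miR-200 cultures, and differed by -0.16 ± 0.19 (limma, adjusted p = 0.761). 1418983_at read 9.08, 8.91 and 8.93 and 9.04, 8.87 and 8.87, a difference of -0.04 ± 0.13 (adjusted p = 0.914). The 2 dim probe sets pointed the other way. 1442244_at read 5.72, 5.44 and 5.76 in the control cultures and 6.33, 6.23 and 6.22 in the miR-200 cultures, every miR-200 culture above every control culture. Its difference of 0.62 ± 0.14 had the smallest adjusted p of the 21 probe sets (0.156 in limma, 95% interval 0.26 to 0.98), and its control values lay just over the background gauge of 5.28. 1440737_at differed by 0.22 ± 0.16 with overlapping groups (adjusted p = 0.592). Which transcript of Patj each probe set reads was not analysed here, so the disagreement between bright and dim probe sets cannot be placed on an isoform.

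Pard3 encodes the Par complex scaffold that is anchored at tight junctions. Its brightest probe set (1434775_at) read 8.89, 8.97 and 8.79 in the control cultures and 9.43, 9.22 and 9.31 in the miR-200 cultures, so all miR-200 cultures were higher. The difference was 0.44 ± 0.13, or 1.35-fold, with a 95% interval of 0.11 to 0.76, and did not pass (limma, adjusted p = 0.241). 1436764_at read 7.96, 8.25 and 7.80 against 8.21, 8.17 and 8.40, a difference of 0.26 ± 0.17 with overlapping groups (adjusted p = 0.559). 1436765_at read 7.71, 8.18 and 7.87 against 8.44, 7.69 and 7.72 and differed by 0.03 ± 0.26 (adjusted p = 0.974). The remaining one, 1420391_at, lay under the background gauge in both groups, between 0 and 4.57, and carries no information on level. The 3 measurable probe sets all had differences above 0; 1436765_at was below 0 after centring on array medians (-0.04).

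Pard6b, which encodes the adaptor that links the kinase to Par3 and Cdc42, had the largest difference of the measurable set and also the widest spread. Its brighter probe set (1423175_s_at) read 9.06, 10.61 and 9.44 in the control cultures and 10.38, 10.49 and 10.71 in the miR-200 cultures. Control A and C lay below all miR-200 cultures, whereas control B lay above miR-200 A and B. The difference was 0.82 ± 0.42 (limma, 95% interval -0.22 to 1.86, adjusted p = 0.451). The other probe set (1423174_a_at) showed the same pattern, 9.25, 10.27 and 9.14 against 9.81, 10.16 and 10.36, a difference of 0.56 ± 0.35 (adjusted p = 0.544). Without control B and miR-200 A the differences were 1.35 and 1.06 on 4 arrays, and neither passed (adjusted p = 0.116 and 0.102). Control B is 1 of the 2 arrays that stood apart over the whole array, and without it alone the differences were 1.28 and 0.91 (limma, adjusted p = 0.119 and 0.209). Without control A they were 0.50 and 0.40, and without control C 0.69 and 0.35, so the size of the Pard6b difference depended on which control cultures entered, while its sign did not change under any alternative run. The suffixes _s_at and _a_at mark probe sets that can hybridize to more than 1 transcript.

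Prkci, the atypical protein kinase C of the complex, was measured by 2 probe sets. 1417410_s_at read 11.67, 11.75 and 11.59 in the control cultures and 11.43, 11.46 and 11.72 in the miR-200 cultures, with overlapping groups and a difference of -0.13 ± 0.14 (limma, 95% interval -0.49 to 0.22, adjusted p = 0.722). 1448695_at read 8.38, 8.09 and 8.38 against 7.91, 8.09 and 8.61 and differed by -0.08 ± 0.23 (adjusted p = 0.911). Both intervals lay within a 2-fold change.

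Llgl2, the Lgl protein of epithelial cells, was the 1 polarity gene whose miR-200 cultures all read lower. Its single probe set (1423938_at) read 9.22, 9.14 and 9.15 in the control cultures and 8.90, 8.76 and 8.50 in the miR-200 cultures. The control cultures lay close together, and the difference was -0.45 ± 0.15, 1.37-fold lower, with a 95% interval of -0.82 to -0.08 (limma, adjusted p = 0.280, not past the threshold). The difference kept its sign under all 15 alternatives, from -0.58 to -0.34. The other Lgl gene, Llgl1, with 1 probe set (1416621_at), read 9.72, 9.27 and 9.72 against 9.61, 9.89 and 10.04. Its difference of 0.28 ± 0.20 had the opposite sign, with overlapping groups (adjusted p = 0.596). Whether the Lgl genes differ from each other in their response was not tested.

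Scrib, a basolateral scaffold with leucine-rich repeats and PDZ domains, read 9.05, 9.04 and 9.07 in the control cultures and 8.81, 9.03 and 9.46 in the miR-200 cultures (1427064_a_at). The controls were nearly identical and the miR-200 cultures lay on both sides of them. The difference was 0.05 ± 0.20 (limma, 95% interval -0.45 to 0.54, adjusted p = 0.949) and was below 0 in the deposited values (-0.015) and after centring (-0.086). Dlg1, the discs large scaffold of the lateral membrane, read 11.20, 11.51 and 11.10 against 11.64, 11.21 and 11.32 on its brightest probe set (1415691_at), a difference of 0.12 ± 0.19 (adjusted p = 0.817) that was -0.02 after centring. On 1450768_at it read 10.14, 10.34 and 10.37 against 10.60, 10.45 and 10.39. There the lowest miR-200 culture lay only just above the highest control, and the difference was 0.20 ± 0.14 (adjusted p = 0.585). The remaining one, 1445798_at, was under the background gauge in both group means.

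**Figure D3:**
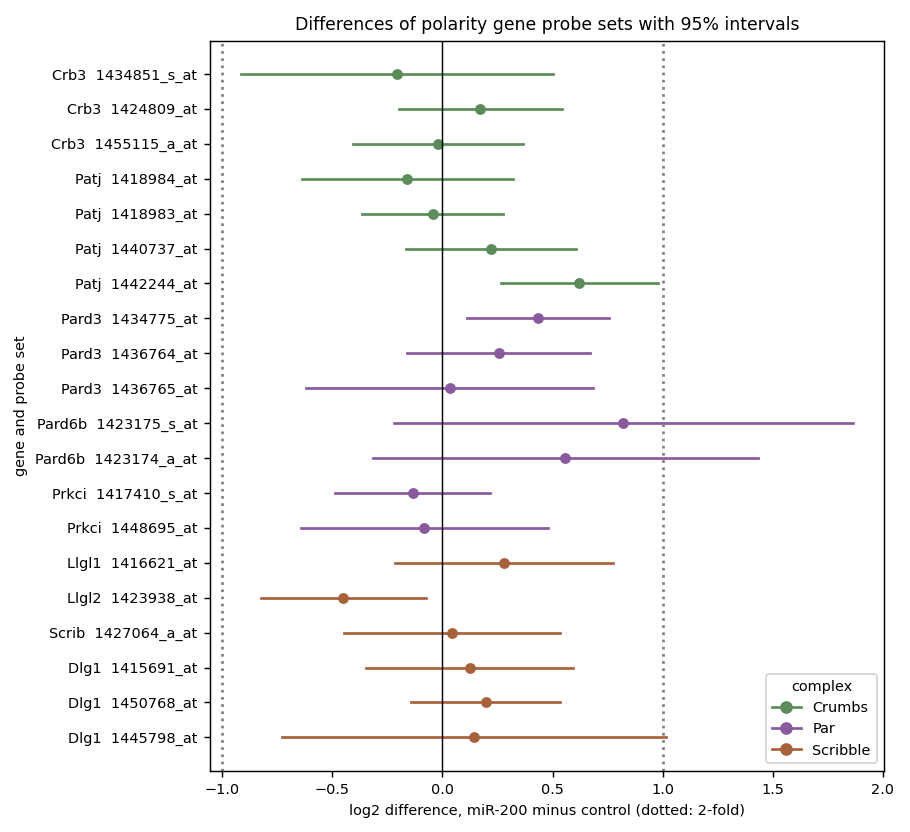
Log2 difference, miR-200 minus control (x axis), of 20 polarity probe sets (y axis) with the 95% interval of the limma fit, coloured by complex; the Pard3 probe set 1420391_at, under the background gauge, is left out and dotted lines mark a 2-fold change. Of the intervals drawn, those of Patj 1442244_at, Pard3 1434775_at and Llgl2 1423938_at do not reach 0, and that of Pard6b 1423175_s_at is the widest.

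Leaving out control B and miR-200 A changed the size of some differences and no call. No polarity probe set passed on the remaining 4 arrays in limma, where 103 of all 45037 probe sets did. An unadjusted p under 0.05 was reached there by 5 of the 21, against 9391 of the 45037. The brightest Crb3 probe set went from -0.21 to -0.59 (adjusted p = 0.274), while 1424809_at was at 0.05. Llgl2 went to -0.55, Pard3 1434775_at to 0.42 and Patj 1442244_at to 0.49. Of the 21 probe sets, 9 deviated in the same direction on both of these arrays relative to the other cultures of their group. With a 2-level term for these arrays and without the dimmest 40% of probe sets, Patj 1442244_at and Pard3 1434775_at passed (limma, adjusted p = 0.0198 and 0.0314) and Llgl2 did not (adjusted p = 0.0564). In that setting 17% of all probe sets passed, and the term was read from the same values that are tested, so its p-values are too small.

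**Figure D4:**
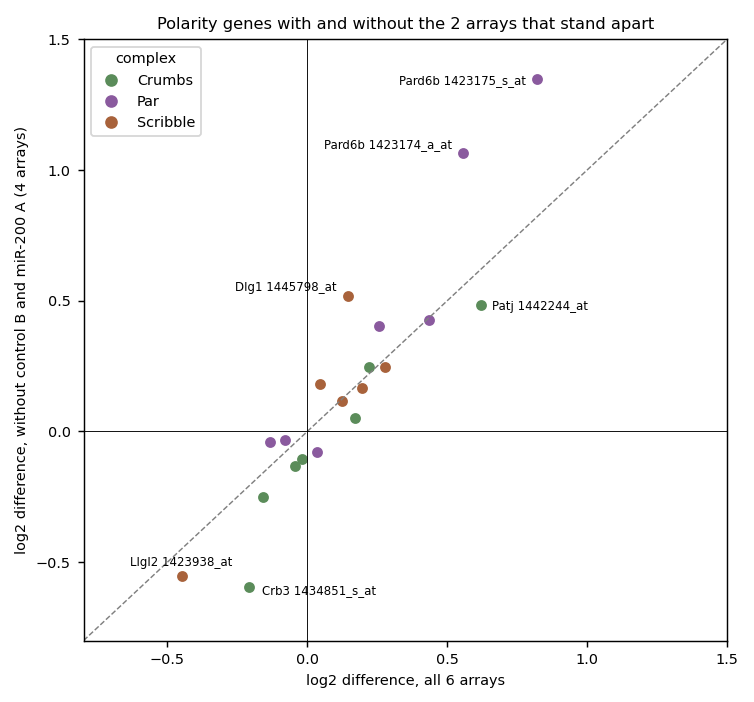
Log2 difference of 20 polarity probe sets over all 6 arrays (x axis) against the difference over the 4 arrays without control B and miR-200 A (y axis); the dashed line marks equal values. The Pard6b probe sets lie above the line at 1.35 and 1.06, and the brightest Crb3 probe set lies below it at -0.59.

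Among the partners of these proteins, 52 of 56 listed genes were measured, each by its brightest probe set, and 2 rose. That is 3.85% of them, and 0 fell. Of all 18193 genes 172 passed in either direction (0.945%), 50 higher and 122 lower. At an unadjusted p under 0.05 in limma the shares in either direction were 17.3% of partners and 14.8% of all genes. The partner lists were chosen with earlier results of these data known. Groups did not overlap for 10 higher and 3 lower partners of 52. Among all 18193 genes they did not overlap for 2076 higher and 2204 lower, 23.5% in either direction. Dlg3, a discs large paralog of Dlg1, read 7.12, 6.89 and 7.0 in the control cultures and 8.88, 8.82 and 8.67 in the miR-200 cultures, with a wide gap between the groups. It rose by 1.79 ± 0.13, 3.45-fold (limma, adjusted p = 0.0121), on its only probe set. Amotl1, an angiomotin family scaffold of the Crumbs and tight junction network, read 8.19, 8.79 and 8.21 against 10.43, 10.11 and 9.99 and rose by 1.78 ± 0.23, 3.44-fold (adjusted p = 0.0473). A second Amotl1 probe set (1455247_at) rose by 1.76 ± 0.19 (adjusted p = 0.0301), and the dimmest one differed by 0.84 ± 0.50 (adjusted p = 0.517). Both calls depended on which arrays entered: Dlg3 passed in limma without control B (adjusted p = 0.0456) and without miR-200 A (0.0352), and missed without control A, control C, miR-200 B or miR-200 C (0.0689 to 0.0934). Amotl1 missed without any 1 array (adjusted p = 0.0567 to 0.191) and in the deposited values (0.0505), with differences of 1.66 to 1.98 when 1 array was left out. Without control B and miR-200 A together both missed, at 1.69 for Dlg3 (limma, adjusted p = 0.0670) and 1.85 for Amotl1 (0.0578).

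No other partner passed. Of 11 Crumbs partners 10 had differences above 0, with a list median of 0.25; of 14 Par partners 12 did, with a median of 0.16; of 11 Scribble partners 7 did, with a median of 0.14. Those medians stand beside a median of 0.0014 over all genes, of which 9133 of 18193 lay above 0. All values except those of Amotl1 and Dlg3 missed the threshold. Of the 52 partners 6 lay under the background gauge in both groups, 3 of them Crumbs partners, against 4501 of the 18193 genes. The lists and all genes are thus not matched for signal level. The list medians are for quantile normalized values and were not computed after centring, where the median of the polarity probe sets went from 0.12 to -0.02. Among Par partners the smallest p belonged to Stk11, the polarity kinase Lkb1, at 9.53, 9.44 and 9.54 against 9.78, 9.99 and 10.18 (difference 0.48 ± 0.15, limma adjusted p = 0.253). Arhgef2, a microtubule-associated protein, came next with a difference of -0.62 ± 0.41 (adjusted p = 0.564). Of 16 junction scaffolds and receptors 11 lay above 0, with a median of 0.19. There Nectin3, an adhesion receptor of adherens junctions, read 11.39, 11.88 and 11.38 against 9.64, 10.15 and 10.29 (difference -1.52 ± 0.24, adjusted p = 0.0792). Marveld3, a tight junction membrane protein, read 6.56, 6.76 and 6.08 against 8.75, 7.89 and 7.94 (difference 1.73 ± 0.31, adjusted p = 0.0994). For both the groups were far apart and the threshold was missed. Both passed without the dimmest 40% of probe sets (limma, adjusted p = 0.0246 for Nectin3 and 0.0338 for Marveld3), where 923 of 27022 probe sets passed. They also passed with the variance trend or array weights, and with the 2-level term only Marveld3 did. Neither passed as deposited, after centring, with the replicate block, without both arrays or without any 1 array. Nectin3 has 6 probe sets and Marveld3 3, of which only the brightest is given.

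**Figure D5:**
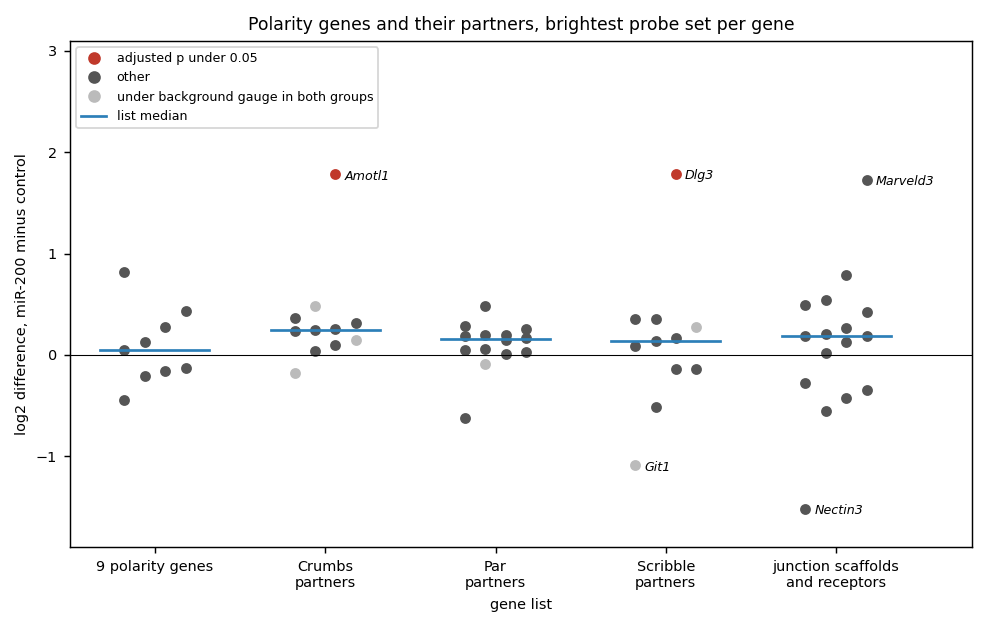
Log2 difference, miR-200 minus control (y axis), of the 9 polarity genes and 52 partner genes by list (x axis), 1 point per gene from its brightest probe set, blue bars for list medians. Amotl1 and Dlg3 (red, 1.78 and 1.79) passed the threshold, Git1 lay under the background gauge, and the 9 polarity genes lie between -0.45 and 0.82.

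Pard3 had the smallest p of the 9 brightest probe sets, so its pattern over the 6 arrays was compared with that of 12804 other genes above the 40th percentile of level. The most alike were Atf7ip, Tnks and Kcnab1, with Pearson correlations of 0.999, 0.997 and 0.996 over 6 arrays, and the most opposed was Efnb1 (-0.998). Correlations above 0.9 were reached by 3.6% of those genes. Tnks, which encodes the poly-ADP-ribose polymerase tankyrase, read 10.00, 10.04 and 9.86 in the control cultures and 10.72, 10.45 and 10.59 in the miR-200 cultures, like Pard3 with miR-200 A highest. Efnb1, an ephrin ligand, read 11.04, 10.91 and 11.10 and 10.36, 10.63 and 10.50, with miR-200 A lowest. These arrays share the 2 groups and the 2 arrays that stood apart, so the correlations are given as a description, with no test.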

How the data were processed

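Values were log2 signals per probe set as deposited by the authors, from biotin-labelled cRNA on Affymetrix mouse arrays per the labels; the summarisation and normalization steps are not given in the sources used here. That the base is 2 was read from the values. The labels name the smaller 430A 2.0 chip, while the table holds 45101 probe sets, and array number, 3 per group, limits the precision. Arrays were quantile normalized with limma 3.58.1 (R 4.3.3), because deposited interquartile ranges spanned 0.17, and 64 control probe sets were left out. Of the 45037 others, 34945 had 1 gene symbol, 932 several and 9160 none. By gene number 34741 were matched to the RefSeq table of GRCm38.p6, whose symbol was then used. Differences were fitted over all 45037 with lmFit and eBayes, two-sided, with Benjamini-Hochberg adjustment at 0.05, and checked on simulated data. A gene is its brightest probe set. The members, lists and tests were chosen with earlier results of these data known, as was the background gauge. Named were all 9 members, partners past the threshold or otherwise the 2 with the smallest p per list, Zeb1, Zeb2, and the 3 genes most like and the 1 most unlike Pard3, as well as genes used as checks. Alternatives were the deposited values, centring, a filter on dim probe sets, a variance trend, array weights, a replicate block, a 2-level term for the arrays that stood apart, leaving out both or any 1 array, and a minimum change; 4 of the 56 listed partners were not analysed here.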

Additional observations from a re-analysis of the deposited data

How the results depend on the processing

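No polarity probe set passed in limma as deposited, after centring, without the dimmest 40%, with a variance trend, with array weights, with a 2-level term for control B and miR-200 A, without both arrays, with any 1 array left out, or with a minimum log2 change of 1; 2 passed with the term and without the dimmest 40% together, a setting chosen after seeing the data. With the culture letter as a replicate block 0 polarity probe sets, 0 partners and 0 probe sets in all passed (1, 7 and 4280 at an unadjusted p under 0.05), and same-lettered arrays had deviations that correlated at -0.58, -0.67 and 0.43, so the letters are not known to pair the cultures.

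The 2 partners past the threshold became 1 as deposited, 4 without the dimmest 40%, 4 with the variance trend, 4 with array weights, 0 without both arrays, 12 with the term and without the dimmest 40%, and 0 to 1 without 1 array. The 335 probe sets became 923 without the dimmest 40%, 951 with the variance trend, 1291 with array weights, 946 with the term, 103 without both arrays, 4606 with the term and without the dimmest 40%, and 32 (without control A) to 328 (without miR-200 A) without 1 array. Of 311 differences of polarity probe sets under alternatives 18 changed sign, none with a call, and 12 of 21 probe sets never did. Centred, they were -0.018 for Dlg1 1415691_at, -0.043 for Pard3 1436765_at and -0.086 for Scrib; as deposited Scrib was -0.015. Pard3 1436765_at was -0.085 with array weights and -0.079 without both arrays. Without 1 array the ranges were -0.40 to 0.0128 (Crb3 1434851_s_at), -0.0845 to 0.0974 (Crb3 1455115_a_at), -0.00267 to 0.24 (Dlg1 1415691_at), -0.0896 to 0.49 (Dlg1 1445798_at), -1.51 to 0.78 (Pard3 1420391_at), -0.21 to 0.16 (Pard3 1436765_at), -0.10 to 0.0108 (Patj 1418983_at), -0.29 to 0.0651 (Prkci 1448695_at) and -0.14 to 0.19 (Scrib 1427064_a_at). The cause was not tested. Pseudocounts do not apply to log2 values, and 2 of 21 probe sets lay under the background gauge in both groups.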
